A study of Lytechinus variegatus with 9 samples.

Results

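The genes described here are those annotated as VEGF and PDGF receptors and ligands in the sea urchin Lytechinus variegatus. They were taken as every gene whose description contained "vascular endothelial growth factor" or "platelet-derived growth factor". The rule returned 5 of the 26814 genes in the count table, of which 4 are described as receptors and 1 as a ligand. That ligand is described as a PDGF subunit, and no gene of the 5 is described as a VEGF ligand. The VEGF ligand genes that the paper names, vegf2 and vegf3, were not identified here. All 5 passed the filter on low counts in each of the comparisons below.

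Whole embryos from 3 separate matings were each divided among axitinib at 75 nM, K02288 at 1 µM and DMSO, the solvent of both drugs, which gave 9 libraries. Treatment began at 18 to 20 hours after fertilization, once the tri-radiate spicule rudiments had formed, and ended at 2 days at 21 °C, when late plutei were lysed for poly-A RNA sequencing. Axitinib is a small molecule that inhibits VEGF receptor kinases, and K02288 inhibits the type I BMP receptors. The comparisons ask what VEGF receptor inhibition and BMP receptor inhibition each do to transcript levels in the later phase of skeleton growth. Library totals ran from 9359212 to 11815263 counts. Because the RNA came from whole embryos, fewer cells of a type and less RNA per cell cannot be told apart. These libraries also do not show the cells in which a transcript changed.

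VEGF and PDGF ligands belong to one family of dimeric secreted growth factors, and their receptors are tyrosine kinases of the cell surface with immunoglobulin domains outside the cell. In the sea urchin embryo, VEGF3 from the ectoderm guides the primary mesenchyme cells (PMCs), the cells that build the skeleton, and these cells carry the receptor vegfr-Ig10. The signal passes inside the cell through phospholipase C gamma, phosphatidylinositol 3-kinase and the Ras-MAP kinase cascade, and Sprouty and Spred proteins restrain that cascade.

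The 5 genes differed in how well the annotation supported their names. All positions are those of the Lvar_3.0 assembly. The gene for vegfr-Ig10 (LOC121408625, described as VEGF receptor 2-like) lies on the minus strand of chromosome 1 from 20230039 to 20283425, with a gene length of 6142 bases in the table. Its listed domains were immunoglobulin domains and a protein tyrosine kinase, and its best Swiss-Prot match was the human VEGF receptor 1. The 2 genes described as VEGF receptor 1-like both lie on the minus strand of chromosome 13, LOC121426153 from 24333737 to 24398426 and LOC121426679 from 17996403 to 18038976. Both had the same kinds of domain and the same best human match. Whether reads were divided among these related receptors was not tested.

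The PDGF receptor alpha-like gene (LOC121415121) lies on the plus strand of chromosome 5 from 4972843 to 5033698. Its annotation listed a tyrosine kinase domain but no immunoglobulin domain, and its best Swiss-Prot match was Ret of the rat, the kinase that receives signals of the GDNF family. The name PDGF receptor alpha-like is therefore used only as the description gives it. Of 97 genes with the same kinase domain, 8 also had an immunoglobulin domain, and these 8 included vegfr-Ig10 and both VEGF receptor 1-like genes. The PDGF subunit A-like gene (LOC121407686), the ligand, lies on the plus strand of chromosome 1 from 17624470 to 17637283 and carried the PDGF/VEGF domain, which only 2 genes of the table had.

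Levels were compared between genes per gene length, as FPKM. In DMSO embryos vegfr-Ig10 was the most abundant of the 5, with 10.1 ± 1.09 FPKM (SD, n = 3), above 71.1% of the 16814 genes with sufficient counts. The PDGF subunit A-like ligand averaged 3.32 ± 3.23 FPKM and the PDGF receptor alpha-like gene 1.68 ± 0.289 FPKM in DMSO embryos. These neighbours in the order did not differ beyond their spread, since the ligand ranged from 0.826 to 6.97 FPKM and the receptor from 1.35 to 1.90 FPKM. The VEGF receptor 1-like genes were at the bottom, LOC121426679 with 0.550 ± 0.208 FPKM and LOC121426153 with 0.471 ± 0.0787 FPKM, and their ranges overlapped. Both stood above less than 8% of genes, at 7.66% and 6.22%.

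**Figure D1:**
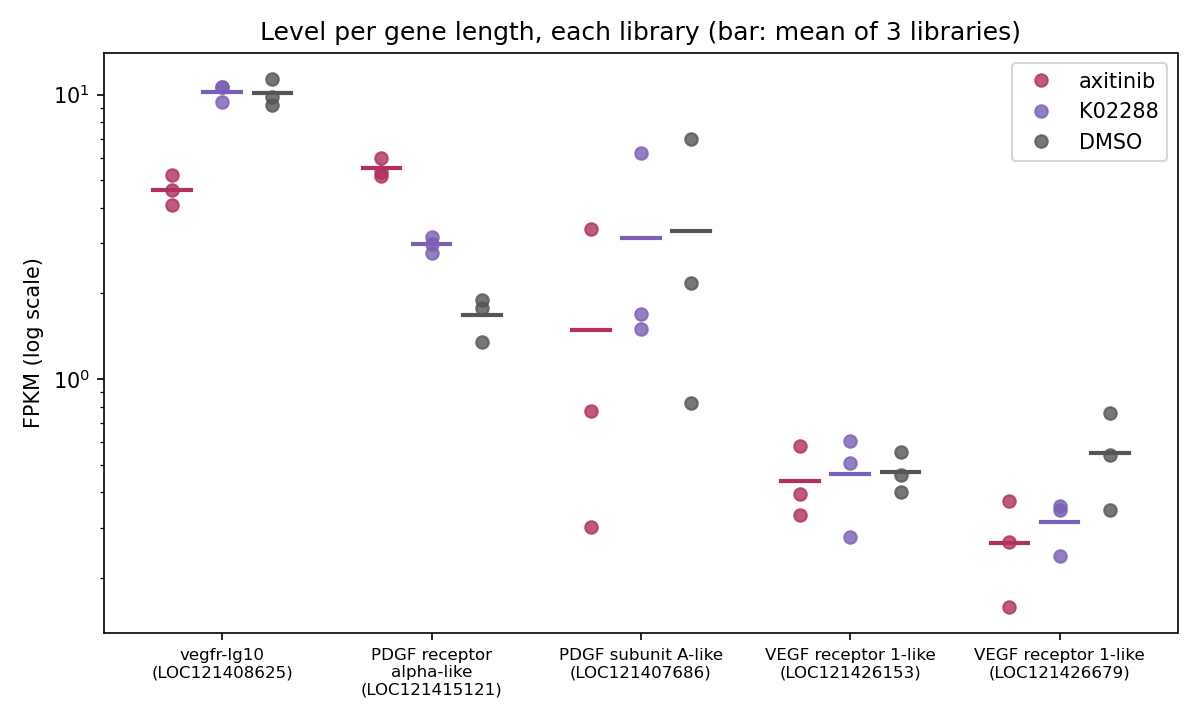
FPKM on a log scale for each of the 5 genes, with 1 point per library and a bar at the mean of the 3 libraries of axitinib, K02288 and DMSO. The points of vegfr-Ig10 lay between 4.09 and 5.21 FPKM in axitinib embryos and between 9.18 and 11.3 FPKM in DMSO embryos, while those of PDGF receptor alpha-like lay between 5.16 and 6.01 FPKM in axitinib embryos and between 1.35 and 1.90 FPKM in DMSO embryos.

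The order of these receptors was reversed in axitinib embryos. In axitinib embryos the PDGF receptor alpha-like gene averaged 5.51 ± 0.445 FPKM and vegfr-Ig10 4.64 ± 0.561 FPKM (SD, n = 3). Within each library, the ratio of vegfr-Ig10 to PDGF receptor alpha-like FPKM was 0.761 to 0.896 in axitinib embryos, 3.16 to 3.85 in K02288 embryos and 4.83 to 7.28 in DMSO embryos. The ratio was thus below 1 in all 3 matings with axitinib and in none with K02288 or DMSO, and the ranges of the treatments did not overlap. Among all genes, vegfr-Ig10 stood above 49.6% with axitinib and 70.9% with K02288. PDGF receptor alpha-like stood above 54.6% with axitinib and 36.7% with K02288, against 23.4% in DMSO embryos.

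Axitinib was first set against DMSO. Among the receptors, vegfr-Ig10 was lower and PDGF receptor alpha-like was higher in axitinib embryos. At the unadjusted p of at most 0.05 of the study's methods, 1 gene of the 5 was lower and 1 was higher by edgeR's quasi-likelihood test, against 3.07% lower, 1.77% higher and 4.85% in either direction of the 16035 genes tested. The median log2 fold change of the 5 genes was -1.04, against 0.01 over all genes tested. That median is the value of LOC121426679, which did not pass, and the genes that passed changed in opposite directions.

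The vegfr-Ig10 transcript, which encodes the PMC receptor for VEGF, had 348, 274 and 308 normalized counts in axitinib embryos of matings 1, 2 and 3, against 614, 657 and 756 in DMSO embryos. Every axitinib library was below every DMSO library. The log2 fold change was -1.12 ± 0.17 (SE), a level 0.459 times that in DMSO embryos with a 95% interval of 0.349 to 0.604. By edgeR's quasi-likelihood test without a mating term p was 0.000200 and the Benjamini-Hochberg adjusted p was 0.0691. With a term for mating, which the pairing of the libraries allows, the log2 fold change was -1.12 ± 0.12 and edgeR's adjusted p reached 3.36e-05. Of the 16035 genes, vegfr-Ig10 was 45th by p without the mating term. The paper lists it among the PMC-enriched mRNAs lowered by axitinib only, and reports weaker vegfr-Ig10 staining by in situ hybridization in treated embryos.

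The size of the change differed somewhat among matings. The log2 ratio of axitinib to DMSO for vegfr-Ig10 was -0.82 in mating 1, -1.26 in mating 2 and -1.29 in mating 3. Mating 1 had both the highest axitinib value and the lowest DMSO value.

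PDGF receptor alpha-like had 275, 247 and 236 normalized counts in axitinib embryos of matings 1, 2 and 3, against 87.3, 61.9 and 81.5 in DMSO embryos. The lowest axitinib library was thus above the highest DMSO library. Its log2 fold change was 1.72 ± 0.22 (SE), a level 3.29 times that in DMSO embryos with a 95% interval of 2.33 to 4.66, and the Benjamini-Hochberg adjusted p of edgeR's quasi-likelihood test was 0.0460. The log2 ratio was 1.66 in mating 1, 2.00 in mating 2 and 1.53 in mating 3. By p the gene was 19th and by log2 fold change 21st from the top of 16035 genes. The axitinib and DMSO libraries did not overlap for vegfr-Ig10 and PDGF receptor alpha-like, 2 of the 5 genes, against 10.1% of all genes tested.

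**Figure D2:**
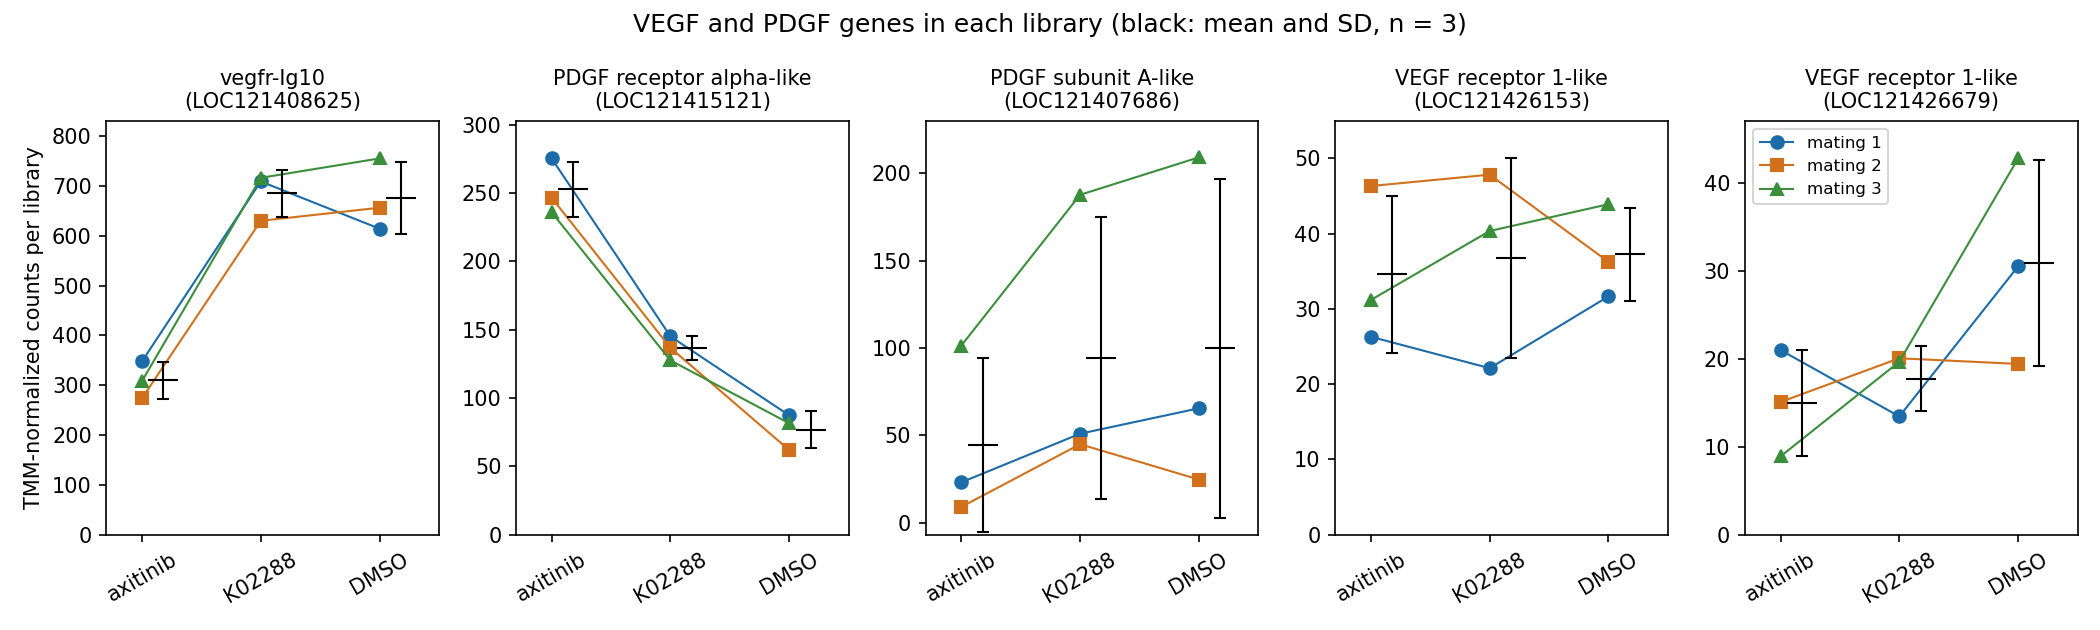
TMM-normalized counts of the 5 genes in each library, 1 panel per gene, with axitinib, K02288 and DMSO along the horizontal axis and lines joining the libraries of 1 mating, and the mean and SD of the 3 libraries in black. The 3 axitinib points of vegfr-Ig10 lie below all others of their panel and those of PDGF receptor alpha-like above all others, while the lines of PDGF subunit A-like are far apart and mating 3 is on top in each treatment.

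The ligand varied more among matings than among treatments. PDGF subunit A-like had 23.1, 9.06 and 101 normalized counts in axitinib embryos of matings 1, 2 and 3, 50.9, 44.9 and 188 in K02288 embryos, and 65.5, 24.7 and 209 in DMSO embryos. Mating 3 was the highest within each treatment, and the treatment groups overlapped. Among the DMSO libraries the highest value was 8.45 times the lowest, a wider spread than that of 94.5% of 16814 genes, whose median was 1.55 times. The same ratio was 1.23 for vegfr-Ig10 and 1.41 for PDGF receptor alpha-like. Its counts before normalization were as low as 9 in the axitinib library of mating 2, so that counting error is large there.

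Within each mating the ligand was lower with axitinib, with log2 ratios of axitinib to DMSO of -1.50, -1.45 and -1.05 in matings 1, 2 and 3. Of all genes tested, 18.4% were lower in all 3 matings. Without a mating term the log2 fold change was -1.17 ± 0.97 (SE), with edgeR's quasi-likelihood p of 0.265. With a mating term it was -1.27 ± 0.26, with a Benjamini-Hochberg adjusted p from edgeR of 0.00702, where 6.22% of all genes passed at an adjusted p under 0.05. The call for PDGF subunit A-like therefore rests on the mating term, with which 3 of the 5 genes passed at that adjusted p. Without the mating term the value also depended on single libraries, from -2.64 without the axitinib library of mating 3 to -0.01 without the DMSO library of mating 3.

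The VEGF receptor 1-like genes had few counts, and the intervals of their changes were wide. LOC121426153 had 26.3, 46.3 and 31.2 normalized counts in axitinib embryos of matings 1, 2 and 3, against 31.6, 36.2 and 43.9 in DMSO embryos. The groups overlapped, and the log2 fold change was -0.11 with a 95% interval of -1.02 to 0.81. LOC121426679 had 21.0, 15.1 and 8.91 normalized counts in axitinib embryos, against 30.6, 19.4 and 42.8 in DMSO embryos. Its log2 ratio was below 0 in each mating, at -0.54, -0.36 and -2.27 in matings 1, 2 and 3, with the axitinib library of mating 3 far below its partner. The fitted log2 fold change was -1.04 ± 0.53 (SE) with edgeR's quasi-likelihood p of 0.0876, and -1.01 ± 0.48 with p of 0.0524 with a mating term. Neither passed.

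K02288 was next set against DMSO. The level of vegfr-Ig10 did not differ detectably, and the only gene of the 5 to pass was PDGF receptor alpha-like, which was higher in K02288 embryos. That was 1 of 5 genes at the unadjusted p of at most 0.05, against 2.45% in either direction and 1.22% higher of the 16288 genes tested by edgeR's quasi-likelihood test. The median log2 fold change of the 5 was -0.02, against 0.01 over all genes.

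In K02288 embryos vegfr-Ig10 had 709, 630 and 717 normalized counts in matings 1, 2 and 3, against 614, 657 and 756 in DMSO embryos. The groups overlapped and the difference was positive in mating 1 and negative in matings 2 and 3, at log2 ratios of 0.21, -0.06 and -0.08. On the log2 scale the change was 0.02 ± 0.15 (SE), with a 95% interval of the level of 0.792 to 1.29 times that in DMSO embryos. With a mating term this interval was 0.871 to 1.18 times.

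PDGF receptor alpha-like had 145, 137 and 128 normalized counts in K02288 embryos of matings 1, 2 and 3, against 87.3, 61.9 and 81.5 in DMSO embryos. The groups did not overlap, as was the case for 6.81% of all genes tested, and the log2 ratios were 0.73, 1.14 and 0.65. Its log2 fold change was 0.83 ± 0.23 (SE), a level 1.77 times that in DMSO embryos with a 95% interval of 1.22 to 2.59. By edgeR's quasi-likelihood test p was 0.00818 without the mating term and the Benjamini-Hochberg adjusted p was 1.00. With a mating term the adjusted p was 0.0218, where 2.88% of all genes passed.

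The other genes did not pass in K02288 embryos. The ligand PDGF subunit A-like was lower in matings 1 and 3 and higher in mating 2, with log2 ratios of -0.36, 0.86 and -0.16, and its log2 fold change with a mating term was 0.03 ± 0.23 (SE). Of the VEGF receptor 1-like genes, LOC121426153 had 22.1, 47.8 and 40.3 normalized counts in K02288 embryos of matings 1, 2 and 3, and LOC121426679 had 13.5, 20.1 and 19.7. The log2 fold change was -0.02 with a 95% interval of -0.99 to 0.94 for LOC121426153 and -0.80 with an interval of -1.92 to 0.32 for LOC121426679.

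**Figure D3:**
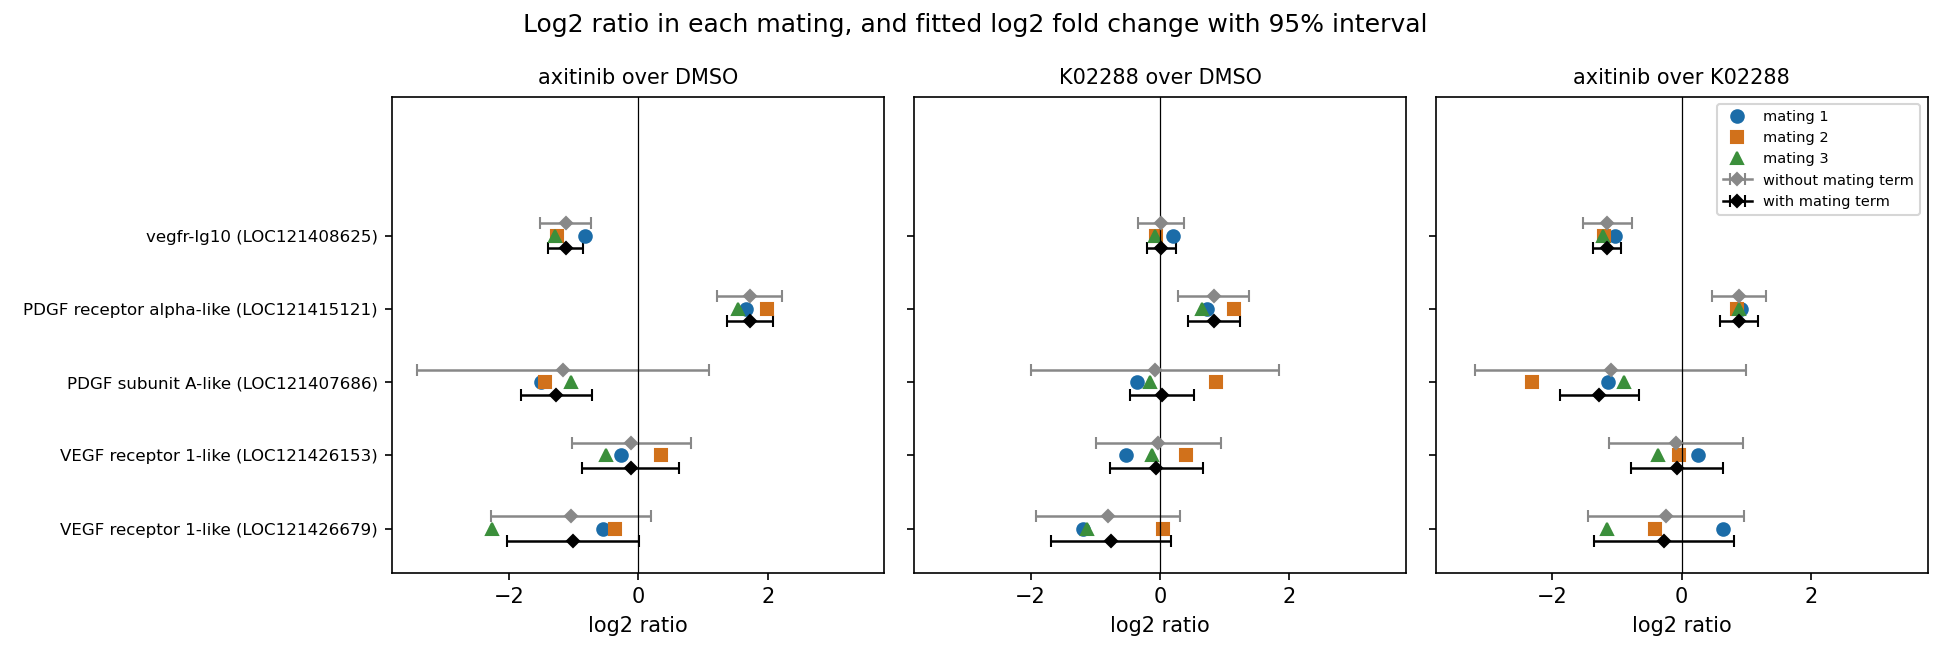
Log2 ratio in each mating (coloured points) and the fitted log2 fold change with its 95% interval, without the mating term in grey and with it in black, for axitinib over DMSO, K02288 over DMSO and axitinib over K02288. In axitinib over DMSO the intervals of vegfr-Ig10 lie below 0 and those of PDGF receptor alpha-like above 0, and the interval of PDGF subunit A-like narrows from -3.43 to 1.09 without the mating term to -1.82 to -0.71 with it.

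Axitinib was also compared with K02288 directly. The axitinib and K02288 comparisons above share the DMSO libraries, whereas this one does not use them. Here vegfr-Ig10 was lower and PDGF receptor alpha-like was higher in axitinib embryos, so that 2 of the 5 genes passed at the unadjusted p of at most 0.05, against 4.99% in either direction, 3.22% lower and 1.77% higher of the 16197 genes tested. The log2 fold change of vegfr-Ig10, axitinib over K02288, was -1.15 ± 0.16 (SE), with log2 ratios of -1.03, -1.20 and -1.22 in matings 1, 2 and 3. By edgeR's quasi-likelihood test the Benjamini-Hochberg adjusted p was 0.0695 without the mating term and 3.80e-06 with it. That of PDGF receptor alpha-like was 0.89 ± 0.18 (SE), and its log2 ratios of 0.92, 0.85 and 0.89 were nearly equal across matings. Its adjusted p was 0.198 without the mating term and 0.000707 with it by the same test.

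The level of PDGF receptor alpha-like thus had the order axitinib, K02288, DMSO from high to low in each of the 3 matings, with no overlap between any pair of treatments. The groups of vegfr-Ig10 did not overlap between axitinib and K02288 either, and 10.1% of all genes tested shared that property in this comparison. PDGF subunit A-like was lower with axitinib than with K02288 in each mating, at log2 ratios of -1.14, -2.31 and -0.89, which held for 20.2% of all genes, and passed only with a mating term, where edgeR's adjusted p was 0.0102. The share of all genes that passed at an adjusted p under 0.05 with a mating term was 8.16%. For the VEGF receptor 1-like genes the log2 fold change was -0.09 with a 95% interval of -1.12 to 0.94 for LOC121426153 and -0.24 with an interval of -1.45 to 0.96 for LOC121426679.

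The gene for vegfr-Ig10 was next placed among the other genes enriched in PMCs, from the study's table of PMC-enriched mRNAs, which came from published single-cell data and not from these libraries. The 301 genes used were the distinct gene identifiers of that table other than vegfr-Ig10, so that entries with no identifier were left out and entries that shared one were counted once. With axitinib, 42 of the 299 tested were lower and 3 higher than in DMSO embryos at the unadjusted p of at most 0.05, against 3.07% lower and 1.77% higher of all genes, and their median log2 fold change was -0.13. The fall of vegfr-Ig10 was deeper than that of nearly all of them, since only 9 of the 299 had a lower log2 fold change. With K02288, 19 of 300 were lower and 4 higher, against 1.23% lower and 1.22% higher of all genes, with a median of -0.10, and 212 of the 300 had a lower log2 fold change than vegfr-Ig10.

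**Figure D4:**
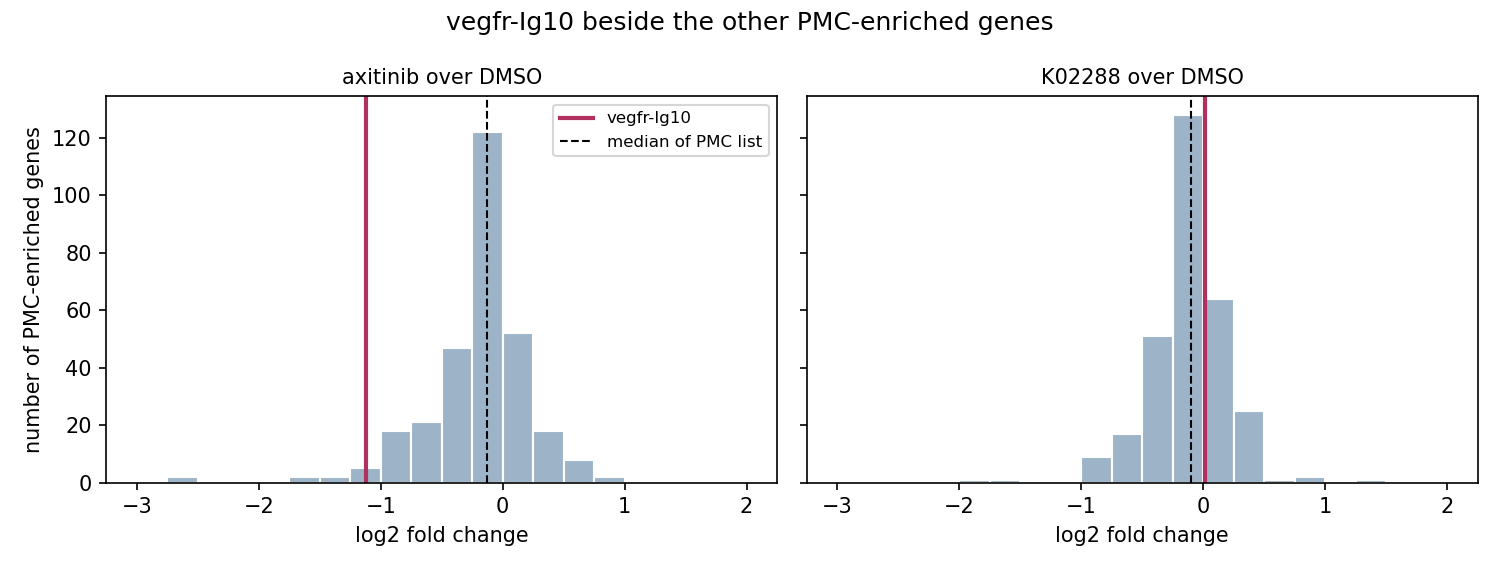
Number of PMC-enriched genes by log2 fold change, for axitinib over DMSO and K02288 over DMSO, with a red line at vegfr-Ig10 and a dashed line at the median of the list. With axitinib the red line at -1.12 is in the left tail, beyond the dashed line at -0.13, and with K02288 the red line at 0.02 is slightly right of the dashed line at -0.10.

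The summed level of the PMC list differed less between treatments than that of the receptor. Its summed normalized counts were 352233 to 371560 in axitinib embryos, 374809 to 382602 in K02288 embryos and 382683 to 419559 in DMSO embryos, and no gene of the list was at 0 in a treatment. Per 10000 summed counts of the list, vegfr-Ig10 had 9.37, 7.77 and 8.40 in axitinib embryos of matings 1, 2 and 3, 18.6, 16.8 and 18.7 in K02288 embryos, and 14.6, 17.2 and 18.3 in DMSO embryos. The axitinib values were below all others on this scale too. Muscle, neuron and pigment cell lists, taken by words in the descriptions, were measured in the same libraries. The words were troponin, tropomyosin or striated muscle for muscle, and synaptotagmin, ELAV-like or synaptophysin for neuron. Pigment cell genes were those with polyketide synthase. The neuron list thus also took in CUGBP Elav-like and extended synaptotagmin genes, and the cells that express the listed genes were not checked. The PMC list also held 1 of the 2 pigment cell genes and 1 of the 26 neuron genes. Summed normalized counts in axitinib and DMSO embryos were 27831 to 33890 against 31344 to 33249 for the muscle list. They were 12509 to 13531 against 13280 to 14146 for the neuron list and 6165 to 10956 against 4109 to 7031 for the pigment cell list. No gene of these lists was at 0 in a treatment. The part of cell numbers in these levels was not tested.

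Related receptors, related ligands and the genes that relay the signal were taken as lists by their descriptions, 71 genes in all. The lists hold any gene whose description matched, such as neuropilin and tolloid-like genes and an acidic FGF intracellular-binding protein. Whether each gene has the role its list is named for was not checked. With axitinib, 5 of the 37 with sufficient counts were lower and 1 was higher at the unadjusted p of at most 0.05, against 3.07% lower and 1.77% higher of all genes, and the median log2 fold change was -0.09. Of the 10 related receptors tested 1 was lower and none was higher, of the 4 related ligands none was lower and 1 was higher, and of the 23 relay genes 4 were lower and none was higher. DESeq2, which tested more of the weakly expressed genes, called 4 lower and 1 higher of 57, against 2.17% lower and 1.3% higher of all genes. In the fit with a mating term, 7 of the 37 were lower and 3 higher, against 8.87% lower and 8.96% higher of all genes. Of the 37, 4 had a Benjamini-Hochberg adjusted p under 0.05 in edgeR, against 6.22% of all genes. By their descriptions the lists left out LOC121420312 and LOC121428545, which the paper names fgfr2l and angpt1l. These genes were at -0.69 and -1.62 on the log2 scale for axitinib over DMSO.

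Among the relay genes, the feedback inhibitors of the Sprouty and Spred families had the lowest p-values. Sprouty homolog 3-like (LOC121430850), of a family that restrains signals from receptor tyrosine kinases, had 139, 219 and 155 normalized counts in axitinib embryos of matings 1, 2 and 3, 810, 844 and 806 in K02288 embryos, and 829, 1175 and 1012 in DMSO embryos. Every axitinib library was below the rest, and the log2 fold change from DMSO was -2.56 ± 0.24 (SE) with a Benjamini-Hochberg adjusted p of 0.0141 by edgeR's quasi-likelihood test. The Spred 2-like gene (LOC121418204), which acts on the same cascade, had 764, 906 and 795 normalized counts in axitinib embryos, 1465, 1729 and 1576 in K02288 embryos, and 1703, 1712 and 1707 in DMSO embryos. It too was lower in every axitinib library, at -1.06 ± 0.13 on the log2 scale with an adjusted p of 0.0460.

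The gene for a MAP kinase kinase 1-like protein (LOC121415882), a kinase of the Ras-MAP kinase cascade, had 24.2, 19.1 and 10.02 normalized counts in axitinib embryos of matings 1, 2 and 3, 26.0, 54.5 and 13.1 in K02288 embryos, and 101, 127 and 14.6 in DMSO embryos. Both drugs gave lower values than DMSO in matings 1 and 2, and mating 3 showed the smallest differences. In mating 3 the counts before normalization were 9 with axitinib, 14 with K02288 and 14 with DMSO. Counting error is large there, and a fall with K02288 in that mating is not shown. For axitinib over DMSO the log2 fold change was -2.19 ± 0.75 (SE) with edgeR's quasi-likelihood p of 0.0207, and -2.03 ± 0.38 with a Benjamini-Hochberg adjusted p of 0.00350 with a mating term. For K02288 over DMSO it was -1.38 ± 0.79 with p of 0.122 and, with a mating term, -1.28 ± 0.32 with an adjusted p of 0.0427. Another gene of the same description, LOC121415768, did not pass in either comparison without the mating term. It was at -0.55 ± 0.39 for axitinib and -0.39 ± 0.43 for K02288, with edgeR's p of 0.203 and 0.385. Its adjusted p from edgeR with a mating term was 0.174 and 0.485. FGF receptor-like 1 (LOC121425416), a receptor of the FGF receptor family without a kinase domain in vertebrates, was lower with axitinib, at -0.36 ± 0.15 (SE) with p of 0.0407. The remaining 2 that passed lay outside the rule for named genes and were named after their values were seen. They were angiopoietin-related protein 7-like (LOC121425307) at 1.14 ± 0.47 with p of 0.0416, and growth factor receptor-bound protein 14-like (LOC121425878), an adaptor, at -0.57 ± 0.24 with p of 0.0478. None of the 4 genes of this paragraph that passed had an adjusted p under 0.05 in edgeR without the mating term. With it LOC121415882 alone did. The fourth gene with an adjusted p under 0.05 with a mating term, also named after its values were seen, was FGF 18-like (LOC121425661), a ligand, at 0.78 on the log2 scale with an adjusted p of 0.0183 in edgeR.

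With K02288, edgeR's quasi-likelihood test called none of the 40 genes tested in these lists at the unadjusted p of at most 0.05. It called 2.45% of all genes. DESeq2 called none of 61, against 1.84% of all genes. With a mating term 3 were lower and 1 was higher in K02288 embryos, against 5.9% lower and 7.26% higher of all genes. Only the MAP kinase kinase 1-like gene LOC121415882 had a Benjamini-Hochberg adjusted p under 0.05 in edgeR, against 2.88% of all genes. In axitinib against K02288, 3 of the 39 tested were lower and none was higher without a mating term, against 3.22% lower and 1.77% higher of all genes. With a mating term 6 were lower and 5 higher, against 10.4% lower and 9.19% higher of all genes. The 3 genes lower without it were the sprouty homolog 3-like gene at -2.26 ± 0.21 (SE), the Spred 2-like gene at -0.95 ± 0.14 and FGF receptor-like 1 at -0.35 ± 0.14, axitinib over K02288 on the log2 scale. In the fit that has the mating term, 8.16% of all genes had a Benjamini-Hochberg adjusted p under 0.05 in edgeR, and 6 genes of these lists did. They were these 3 and another 3 named after their values were seen: a phosphatidylinositol 3-kinase regulatory subunit alpha-like gene (LOC121424594) at 0.53, an angiopoietin-1 receptor-like gene (LOC121423718) at 0.57 and a Tie-1-like receptor gene (LOC121424502) at -0.64.

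Genes with both an immunoglobulin and a kinase domain gave a set of 8 by structure, chosen after their values were seen. With axitinib, vegfr-Ig10 was lower, and so was LOC121420312, at -0.69 ± 0.18 (SE) with an unadjusted p of 0.00569 by edgeR's quasi-likelihood test. Of all genes, 3.07% were lower at the unadjusted p of at most 0.05. The Benjamini-Hochberg adjusted p of LOC121420312 from edgeR was 0.475 without the mating term. With it the adjusted p was 0.00170, where 6.22% of all genes passed. The description of LOC121420312 is ephrin type-B receptor 3-like. The paper instead names it fgfr2l, a growth factor receptor, among the PMC-enriched mRNAs lowered by axitinib only. The others, which included the VEGF receptor 1-like genes, did not pass. With K02288 none of the 8 passed by edgeR's test without a mating term, against 2.45% of all genes. With a mating term LOC121420312 was lower at an unadjusted p of 0.0341 in edgeR, as were 5.9% of all genes at the threshold. Its adjusted p there was 0.315.

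The only other gene with a PDGF/VEGF domain was LOC121406966, described as uncharacterized, on the minus strand of chromosome 1 from 14803501 to 14829417. It lay outside the rule and was singled out after its values were seen. It had 327, 188 and 505 normalized counts in axitinib embryos of matings 1, 2 and 3, 223, 158 and 498 in K02288 embryos, and 248, 179 and 443 in DMSO embryos. Mating 3 was the highest in each treatment, as it was for PDGF subunit A-like, and the treatments overlapped. Its log2 fold change was 0.23 for axitinib over DMSO and 0.01 for K02288 over DMSO, and neither passed.

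Finally, the genes most like the 2 responding receptors were found, as those with the highest Pearson r of log2 depth-scaled counts over the 9 libraries after removal of each mating's mean, among 16813 other genes. These points share libraries and treatments, so that any gene that responds in the same way scores high. The r takes no account of the size of a change. Most like vegfr-Ig10 were a tetratricopeptide repeat protein 39B-like gene (LOC121424086, r = 0.992), an anthocyanidin reductase-like gene (LOC121429565, r = 0.992), the VCPIP1-like gene (LOC121417314, r = 0.988), a snaclec echicetin-like gene (LOC121405990, r = 0.987) and a glycine transporter 1-like gene (LOC121424436, r = 0.985). Of these, the snaclec echicetin-like gene belonged to the PMC list. It averaged 86.4 normalized counts in axitinib embryos, 740 in K02288 embryos and 528 in DMSO embryos. The gene with the highest r, LOC121424086, changed less, with 104, 138 and 139 in that order.

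Most like PDGF receptor alpha-like were the genes for a WD repeat-containing protein 75-like protein (LOC121426046, r = 0.993), cytochrome c (LOC121426863, r = 0.989), a PERCC1-like protein (LOC121423349, r = 0.983), a creatinase-like protein (LOC121413683, r = 0.979) and an uncharacterized protein (LOC121429222, r = 0.975). None was in the PMC list. LOC121429222 averaged 9892 normalized counts in axitinib embryos, 4855 in K02288 embryos and 2691 in DMSO embryos. The gene with the highest r, LOC121426046, changed less, with 233, 189 and 161 in that order. On the same measure, over the same 9 libraries, vegfr-Ig10 had r = 0.895 with PDGF subunit A-like and r = -0.850 with PDGF receptor alpha-like.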

How the data were processed

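Alignment by the authors was done with HISAT2 against version v3.0 of the L. variegatus genome. The submitters' processing notes also name CASAVA 1.8. The tool that counted reads, and whether it used strand, are not given in the sources used here. The authors deposited raw whole-number counts per gene and FPKM values for each of the 9 libraries, with no pooling. On the files, FPKM equalled the count divided by gene length and by 1 library size per library. Comparisons and tests computed by the authors were not used. All 26814 genes matched RefSeq (Lvar_3.0) with the same coordinates.

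Quasi-likelihood models of the counts (edgeR 4.0.16 under R 4.3.3: TMM scaling, glmQLFit and glmQLFTest, genes kept by filterByExpr) used the 6 libraries of each comparison, without a mating term. Genes were called at the unadjusted p of at most 0.05 of the study's methods, beside Benjamini-Hochberg adjusted p over all genes tested. Normalized counts were scaled with TMM factors of all 9 libraries, and intervals are 95% intervals of the fit. Alternatives were DESeq2 1.42.0, limma 3.58.1 on log2(FPKM + 1), other filters and scalings, all 9 libraries in 1 fit, each library left out, and the mating as a replicate block. Figures were drawn in Python 3.11.15 with matplotlib 3.10.9. The edgeR steps were tested on simulated data.

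Per the methods the replicate numbers mark separate matings, each of which was given all 3 treatments. After removal of treatment means, libraries of 1 mating correlated at r of 0.708 to 0.752 (9 pairs) and those of different matings at -0.420 to -0.328 (18 pairs), so the numbers pair the libraries. P-values of the fit without a mating term are set against the spread between these 3 matings. Those of the fit with it are set against the spread left after differences between matings are removed.

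Named genes were the 5 members, the 5 most correlated genes for vegfr-Ig10 and for PDGF receptor alpha-like, and up to 4 genes with the lowest p of at most 0.05 from the related receptor (38 genes), related ligand (9) and signal relay (24) lists in each comparison. The PMC list holds the distinct gene identifiers of the study's single-cell table other than vegfr-Ig10, without the genes the study added from earlier work. A gut list (endo16) matched 0 genes. The members and lists were chosen with earlier results of these data known. For a gene at 0, the limit per library was taken as 3 counts, covering counting error only.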

Additional observations from a re-analysis of the deposited data

How the results depend on the processing

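Across the alternatives, vegfr-Ig10 and PDGF receptor alpha-like kept their direction and a p of at most 0.05 in axitinib against DMSO and against K02288, and PDGF receptor alpha-like did so in K02288 against DMSO. Without single libraries, the log2 fold change of vegfr-Ig10 ran from -1.21 to -1.03 in axitinib against DMSO, and that of PDGF receptor alpha-like from 1.58 to 1.81 there and from 0.69 to 0.92 in K02288 against DMSO. The difference of vegfr-Ig10 between K02288 and DMSO embryos had no stable sign, from -0.049 to 0.11 without single libraries and from -0.074 to 0.07 with the replicate block and a whole mating left out. The number of the 5 genes called was 2 to 3 without single libraries in axitinib against DMSO and in axitinib against K02288, and 1 to 1 in K02288 against DMSO. Of all genes, 621 to 762, 641 to 863 and 334 to 391 were called there, in that order of comparisons. With the replicate block the number of the 5 called was 3, 3 and 1 in that order, against 2859 of 16035, 3170 of 16197 and 2144 of 16288 genes. With the block and without replicate 2, it was 4 in axitinib against DMSO and 2 in K02288 against DMSO. All genes called at that setting were 2673 of 16255 and 1898 of 16466. There LOC121426679 also passed, at log2 fold changes of -1.33 and -1.15 that came with unadjusted p-values under the threshold.

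Signs of genes that did not pass were unsteady. PDGF subunit A-like in K02288 against DMSO was 0.027 with the replicate block, 0.024 in limma, -1.06 to 1.08 without single libraries and -0.24, 0.18 and 0.21 with the block without single matings. Without single libraries, and with the block without single matings, LOC121426153 ran from -0.38 to 0.056 and -0.39 to 0.066 in axitinib against DMSO, -0.26 to 0.24 and -0.31 to 0.14 in K02288 against DMSO, and -0.36 to 0.15 and -0.20 to 0.085 in axitinib against K02288. LOC121426679 ran from -0.56 to 0.023 and -0.75 to 0.11 in axitinib against K02288. A minimum of 10 counts in every library gave no value for PDGF subunit A-like or LOC121426679 in comparisons with axitinib. The replicate block raised the number of all genes called, to 2859 from 777 in axitinib against DMSO, 2144 from 399 in K02288 against DMSO and 3170 from 808 in axitinib against K02288. The cause of these differences was not tested. The VEGF receptor 1-like genes had at most 50 counts in any library, so counting error is large there.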
